A study of Mus musculus with 28 samples.

Results

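MYC and the genes that build ribosomes were examined as 1 module of 40 genes, out of 23382 gene symbols measured by RNA-seq in germinal center B cells of mice. The members were taken from a fixed list of symbols: Myc, its partner Max and its relative Mycn, RNA polymerase I factors, nucleolar rRNA processing factors, polyamine and pyrimidine enzymes, and translation initiation factors. All 40 symbols were found, and 39 had enough reads to test. Mycn, which encodes a second MYC protein, had 3 reads or fewer in every library and reads at all in only 4 of the 28 libraries.

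Germinal centers are the sites where B cells divide and mutate their antibody genes. MYC is a transcription factor that binds DNA as a dimer with MAX and promotes growth genes. In germinal centers it is known to be switched on briefly in the cells selected to divide again, and BCL6, the main repressor of the germinal center, is known to repress it. Ribosome production starts with transcription of rDNA by RNA polymerase I in the nucleolus. The rRNA precursor is then modified by small nucleolar RNPs and cut and folded by the small and large subunit assembly factors, many of which are textbook MYC targets. TBL1XR1 is a subunit of the SMRT/NCOR corepressor complex that BCL6 recruits.

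The 28 libraries form 6 genotype groups, and all carry 1 copy of Cg1Cre, a Cre allele active in B cells that have responded to antigen. D370Y libraries (n = 5) were heterozygous for the Tbl1xr1 D370Y point mutation and WT libraries (n = 3) had unmutated Tbl1xr1. The ImuBcl6 allele, which drives Bcl6 from an immunoglobulin heavy-chain promoter, was present with heterozygous D370Y (ImuBcl6 D370Y, n = 5) or with unmutated Tbl1xr1 (ImuBcl6, n = 5). KO libraries were labelled Tbl1xr1 KO/KO (n = 5). The Cre control libraries (n = 5) carry the same genotype label as WT, but a stranded TruSeq kit is named only for KO and Cre control. The labels do not say which animal gave which library, so the p-values below describe only how far these libraries scatter, and that scatter may be technical.

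Libraries held 19.0 M to 37.7 M reads on listed genes. In 27 of them these reads were 78.7% to 84.6% of the total to which the authors scaled their CPM values (counts per M reads, M standing for mega), against 64.4% in KO replicate 3, whose CPM are therefore lower for most genes. The share was also lower in every D370Y library (78.7% to 82.4%) than in every WT library (82.5% to 84.3%). In ImuBcl6 D370Y the share was 79.77% to 80.88%, against 80.90% to 81.92% in ImuBcl6. Scaled to the reads on listed genes, the median log2 fold change of all genes moved from -0.016 to 0.019 in D370Y against WT. For D370Y in ImuBcl6 cells it moved from -0.0083 to 0.012. B cell markers summed to 4887 to 7363 CPM in each library. Tbl1xr1 itself was not lower in libraries labelled KO (102.0 ± 15.4 CPM, SD, n = 5) than in Cre control (86.0 ± 5.82, n = 5). The labels do not say which part of the gene is deleted, and CPM of a whole gene need not show such a deletion. Xist ran from 485.9 to 1460 CPM in D370Y and from 303.6 to 638.0 in ImuBcl6, against 2.22 to 9.12 in WT and 0.299 to 1.39 in ImuBcl6 D370Y, and 4 Y-linked genes ran the opposite way. Sex and allele cannot be told apart in either D370Y comparison, nor sex and the ImuBcl6 allele between ImuBcl6 and WT. The contrasts built on these comparisons carry the same limit. Xist had 0.0493, 147.5, 948.2, 0.202 and 0.0262 CPM in KO and 179.2, 154.4, 104.7, 0.108 and 86.7 CPM in Cre control. Both groups were thus mixed for Xist, with KO replicate 3 the highest, and sex entered no fit. The Y-linked Ddx3y reached 16.4 CPM at most in Cre control, against 88.3 to 100.2 in WT.

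MYC and MAX bind the E-box CACGTG, which reads the same on both strands, so the 250 bases before each RefSeq transcription start (GRCm38.p6) were searched for those letters. Of the 40 members 33 matched the promoter table, with 42 starts. The 7 not searched were Myc, Npm1, Fbl, Srm, Tcof1, Rrp12 and Bop1. The motif stood at 3 of these starts (7.14%), against 1978 of all 32851 starts (6.02%). The windows of the 3 genes that hold it are shown because they place the motif in genes whose values follow, with 30 bases on each side and the motif in capitals. Eif4e holds 2 such motifs, 228 and 64 bases before its start, and the nearer one is shown. They belong to Eif4e, the cap-binding factor, at chr3:138527174-138527239 on the plus strand, Nop2, an rRNA methyltransferase, at chr6:125131793-125131858 on the plus strand, and Eif4a1, the cap-complex RNA helicase, at chr11:69672577-69672642 on the minus strand. A match to these letters is not a binding site.
Eif4e: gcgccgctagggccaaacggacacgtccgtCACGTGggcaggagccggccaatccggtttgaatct
Nop2: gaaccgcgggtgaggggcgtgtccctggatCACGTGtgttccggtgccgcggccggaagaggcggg
Eif4a1: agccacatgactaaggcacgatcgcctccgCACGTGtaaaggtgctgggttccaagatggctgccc

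On a scale of mean CPM per kilobase of exon, the WT levels of the 39 tested members ran from 2.24 for Wdr12, a 60S assembly factor, to 109.2 for Pa2g4, a growth-regulated nucleolar protein. The other high levels per kilobase were those of Ncl, nucleolin (104.1), and Npm1, nucleophosmin (97.1). Myc stood at 13.45 CPM per kilobase and Max at 36.35. These 3 highest members belong to the list of nucleolar organisers and chaperones, and Myc lay below its partner on this scale. By mean WT CPM, not scaled to length, the highest were Ncl (1061), the rDNA transcription factor Ubtf (360.9) and Pa2g4 (306.1).

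The first question was whether D370Y changed the module in cells without ImuBcl6. No member passed the test. With limma on log2(CPM + 1), 0 of 39 members had a Benjamini-Hochberg adjusted p below 0.05, where 3.55% of all 10600 genes tested did (2.6% higher and 0.943% lower). Those 376 calls became 149, 148 and 124 without WT replicate 1, 2 and 3, with 0 members called each time. At an unadjusted p below 0.05 there were 3 of 39 members, beside 18.3% of all genes. EdgeR and DESeq2 also called 0. The median log2 fold change of the members was 0.03, beside -0.02 for all genes, and every member lay between -0.15 and 0.25. Summed as deposited CPM, the members overlapped between the groups, at 4976 to 5242 in D370Y and 5019 to 5233 in WT. As a share of the reads on listed genes these sums did not overlap, at 0.626% to 0.639% in D370Y and 0.600% to 0.621% in WT. A sum gives most weight to abundant members such as Ncl (1087 CPM in D370Y and 1061 in WT). The median over members of log2(CPM + 1), scaled to listed reads, did overlap. It ran from 6.41 to 6.67 in D370Y and from 6.42 to 6.61 in WT.

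Myc (chr15:61985391-61990374, plus strand) had 43.1, 40.04, 42.1, 57.7 and 37.1 CPM in the D370Y libraries and 36.2, 39.8 and 33.5 CPM in the WT libraries. D370Y replicate 4 was the highest, and replicate 5 lay inside the WT range, so the groups overlapped. The means were 44.0 ± 7.97 (SD, n = 5) and 36.5 ± 3.16 CPM (n = 3), a log2 fold change of 0.25 ± 0.12 (SE, limma adjusted p = 0.288). Max (chr12:76937269-76962201, minus strand) had 119.2, 116.8, 121.5, 111.0 and 125.6 CPM with D370Y and 131.6, 130.4 and 130.4 CPM in WT. Every D370Y library was below every WT library, but the difference of -0.14 ± 0.06 on the log2 scale did not pass (limma adjusted p = 0.258). The groups were apart in this way for 14.8% of all genes, and for 2 of the 39 members.

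The other member with separate groups was Mybbp1a (chr11:72441355-72451768, plus strand), a nucleolar MYB-binding protein. It had 283.5, 283.8, 258.2, 286.9 and 260.0 CPM with D370Y against 244.4, 244.5 and 242.8 CPM in WT. All 5 D370Y values exceeded the WT values, which lay close together (log2 fold change 0.17 ± 0.06, limma adjusted p = 0.179). Rrp12, a 40S and 60S export and processing factor, had the smallest adjusted p of the module, 0.148 by limma. Its levels were 35.4, 32.7, 28.8, 36.2 and 31.9 CPM with D370Y and 29.5, 27.6 and 26.4 CPM in WT. Only D370Y replicate 3 reached into the WT range (0.24 ± 0.08 on the log2 scale).

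The remaining role groups held smaller differences, none of which passed. Among the RNA polymerase I factors, the subunit Polr1b differed by 0.09 ± 0.08 and the rDNA transcription factor Ubtf by -0.09 ± 0.06 on the log2 scale. In the snoRNP group the values were -0.15 ± 0.10 for Fbl, the box C/D methyltransferase, and 0.10 ± 0.08 for Rrp9, which binds the U3 snoRNA. Gnl3, the nucleolar GTPase nucleostemin, differed by 0.14 ± 0.07, the small subunit factor Utp20 by 0.06 ± 0.08, and the 60S factors Rrp1b and Ppan by 0.16 ± 0.09 and 0.08 ± 0.09. Cad, the first enzyme of pyrimidine synthesis, and Srm, spermidine synthase, lay at 0.15 ± 0.09 and 0.12 ± 0.11. Eif4e and Eif4a1 both lay below 0, at -0.15 ± 0.11 and -0.13 ± 0.08.

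The size of effect that these libraries leave room for can be read from the intervals. In D370Y against WT the 95% interval of all 39 tested members lay within a 1.5-fold change in either direction, and that of 32 lay within 0.32 of 0 on the log2 scale. The same counts, 39 and 32, were found for D370Y in ImuBcl6 cells, and 39 and 24 for KO against Cre control.

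**Figure D1:**
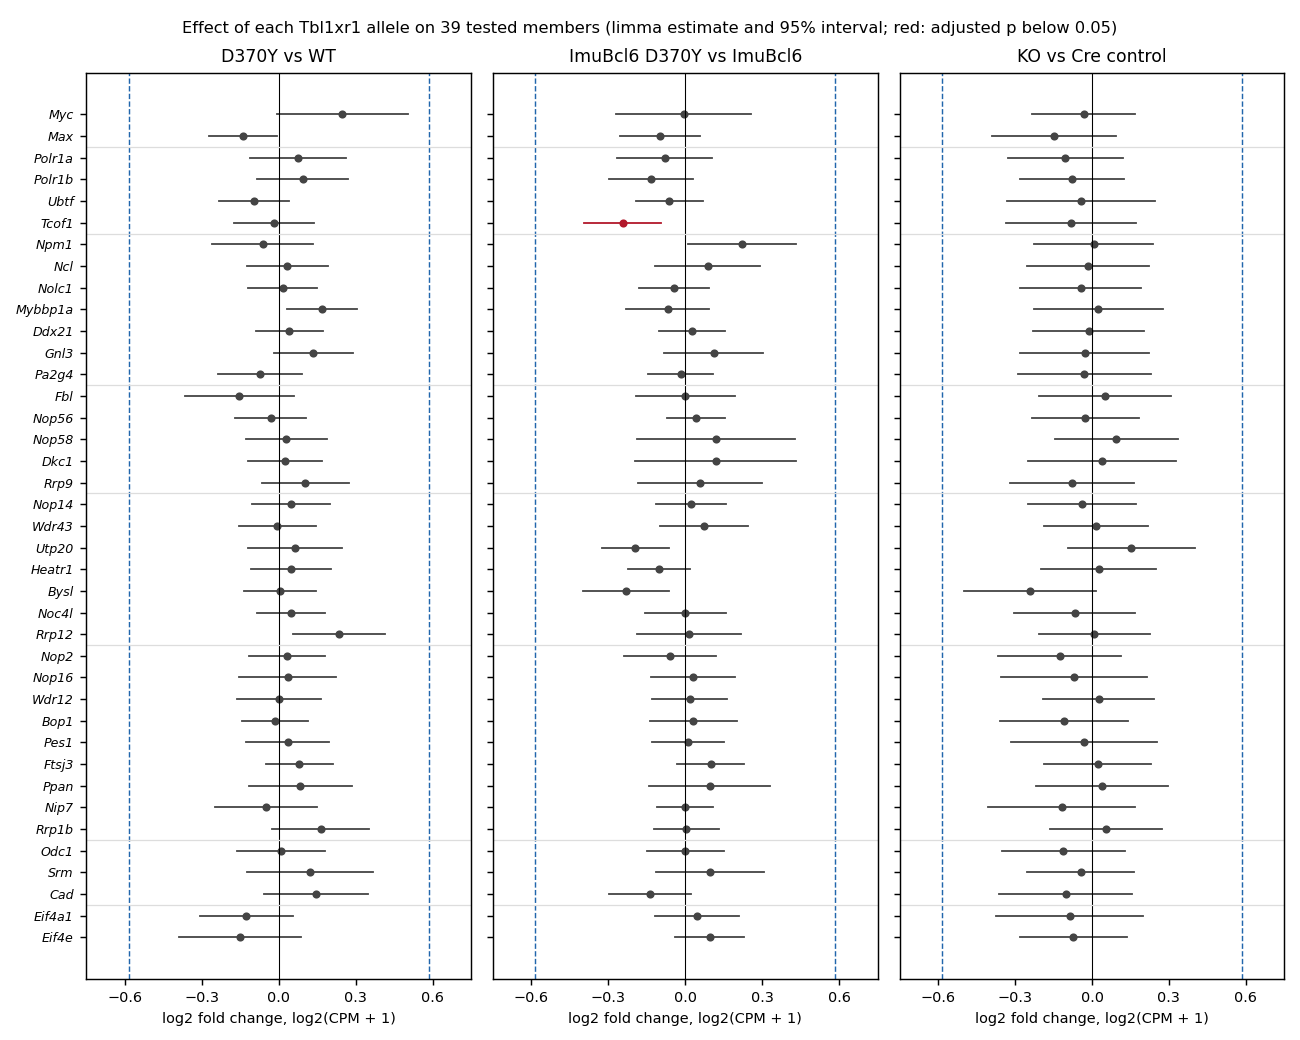
Log2 fold change on log2(CPM + 1) with its 95% interval (limma) for the 39 tested members in each Tbl1xr1 allele comparison, ordered by role with grey lines between role groups; dashed lines mark a 1.5-fold change. Every interval lies inside the dashed lines, and Tcof1 in ImuBcl6 cells (red) is the 1 member with an adjusted p below 0.05.

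The second comparison asked the same of D370Y in cells with ImuBcl6. Tcof1, which encodes treacle, a nucleolar protein that recruits RNA polymerase I factors to rDNA, fell, and it was the 1 of 39 members to pass. Of all 10784 genes 8.18% passed, 2.8% as higher and 5.38% as lower, so 1 lower member in 39 is below that share. The 882 calls over all genes became 546 and 501 without ImuBcl6 D370Y replicate 2 and 3 and 434 without ImuBcl6 replicate 3. At an unadjusted p below 0.05 there were 4 of 39 members, of which 3 were lower, beside 23.9% of all genes. The median member differed by 0.01 on the log2 scale, and the module spanned -0.24 to 0.22.

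Tcof1 had 269.3, 245.4, 277.3, 285.5 and 300.5 CPM with D370Y and 281.2, 345.0, 341.7, 334.7 and 330.3 CPM without. ImuBcl6 replicate 1 stood apart from the other controls and lay inside the D370Y range, so the groups overlapped. The means were 275.6 ± 20.4 and 326.6 ± 26.0 CPM (SD, n = 5 each), and the log2 fold change was -0.24 ± 0.07 (SE, limma adjusted p = 0.0486). The call sits at the threshold. It was lost with CPM over listed reads (limma adjusted p = 0.0670), TMM scaling (0.0621), no low-value filter (0.0807) and the edgeR test (0.0653), and kept by DESeq2 (0.0268). Leaving out 1 library at a time kept the call without ImuBcl6 replicate 1 (limma adjusted p = 0.00978) and without ImuBcl6 D370Y replicate 5 (0.0451). It was lost without each of the other 8, at adjusted p from 0.0573 to 0.128.

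Utp20 (chr10:88746607-88826804, minus strand), a large scaffold of the small subunit processome, was the member whose groups did not overlap, where 8.96% of all genes had separate groups. It had 68.6, 67.5, 67.7, 63.4 and 64.7 CPM with D370Y and 85.2, 78.6, 74.7, 73.3 and 69.6 CPM without. Every D370Y library was lower, yet the difference (-0.19 ± 0.06, limma adjusted p = 0.0673) did not pass. Bysl (chr17:47599331-47611492, minus strand), bystin, which acts in 40S assembly, had 87.5, 80.1, 90.4, 85.3 and 86.2 CPM with D370Y and 84.8, 97.6, 100.5, 106.9 and 117.7 CPM without. ImuBcl6 replicate 1 was again the control inside the D370Y range (-0.23 ± 0.08, limma adjusted p = 0.0849). Without that library Bysl passed as lower beside Tcof1, at a limma adjusted p of 0.0146, where 1016 of all 10854 genes passed.

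Of the exon bases of Bysl, 9.37% overlap the gene Ccnd3, which encodes a D-type cyclin, on the opposite strand. Ccnd3 differed by -0.48 ± 0.10 on the log2 scale in this comparison (limma adjusted p = 0.00992), by -0.30 ± 0.08 in D370Y against WT (0.0611) and by -0.29 ± 0.12 in KO against Cre control (0.374). Whether the authors counted by strand is not stated, and reads of this overlap could go to either gene.

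Npm1, a nucleolar chaperone and the highest estimate of the module here, had 340.7, 318.5, 282.9, 232.7 and 266.5 CPM with D370Y and 279.5, 257.5, 227.5, 230.7 and 232.9 CPM without (0.22 ± 0.10, limma adjusted p = 0.183). The groups overlapped. Myc levels were 45.5, 60.7, 50.6, 63.0 and 57.2 CPM with D370Y and 43.6, 52.2, 55.1, 57.1 and 72.1 CPM without. They covered the same range, with a log2 fold change of -0.01 ± 0.12 (95% interval -0.27 to 0.26) whose sign depended on the scaling. Max lay at -0.10 ± 0.07.

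The rest of the module in ImuBcl6 cells stayed within these bounds. Polr1b lay at -0.13 ± 0.08 and Cad at -0.14 ± 0.07 on the log2 scale, while Srm lay at 0.10 ± 0.10. Positive estimates that did not pass were those of Nop58, the box C/D core protein, and Dkc1, the pseudouridine synthase dyskerin (both 0.12 ± 0.14). Gnl3 (0.11 ± 0.09), the 60S factors Ftsj3 (0.10 ± 0.06) and Ppan (0.10 ± 0.11), Eif4e (0.10 ± 0.06) and Eif4a1 (0.04 ± 0.08) were also above 0. Odc1, ornithine decarboxylase, the first enzyme of polyamine synthesis and a textbook MYC target, had nearly equal means of 243.5 ± 20.6 and 243.4 ± 19.0 CPM (SD, n = 5 each).

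**Figure D2:**
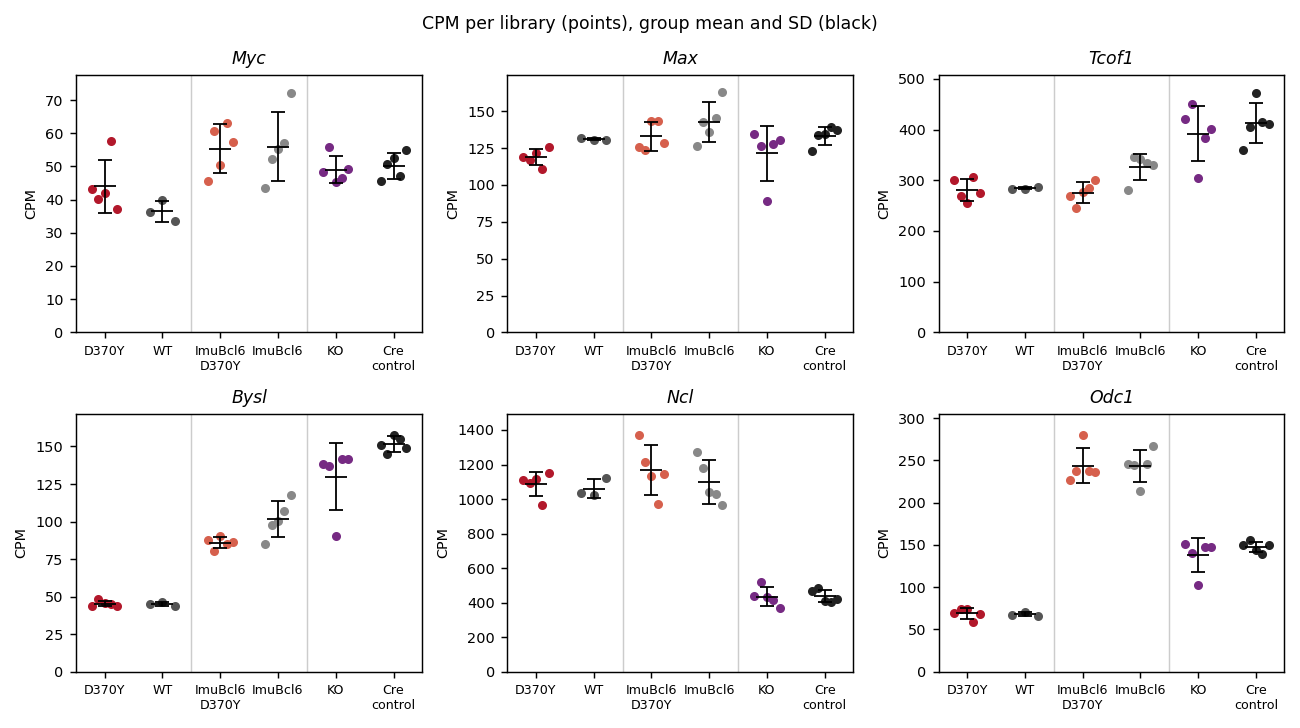
CPM of 6 members in each of the 28 libraries (points), with the group mean and SD in black; vertical lines separate the 3 allele comparisons. Within each pair of groups the points overlap or lie close, and KO replicate 3 is the low purple point for Max, Tcof1, Bysl and Odc1. Levels of Odc1 differ more between the pairs than within them (68.2 CPM in WT, 243.4 in ImuBcl6, 147.6 in Cre control). That does not hold for Max.

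KO libraries, in which the CPM of the whole Tbl1xr1 gene was not lower, were next compared with Cre control. No member passed: limma called 0 of 39, where 1.39% of all 10514 genes were called (0.476% higher and 0.913% lower). At an unadjusted p below 0.05 there were 0 members, beside 9.05% of all genes. EdgeR and DESeq2 called 0 as well. The median member lay at -0.03 on the log2 scale, beside -0.06 for all genes, within a range of -0.24 to 0.15. KO replicate 3 bears on all of these values, because its summed CPM over the tested members was 3733 against 4737 to 5175 in the other KO libraries. As a share of its own reads on listed genes the module took 0.580% in that library, inside the KO range of 0.569% to 0.621%.

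Bysl was the member with separate groups, as were 4.23% of all genes. It had 138.2, 137.0, 90.1, 141.9 and 141.5 CPM in KO and 151.2, 144.9, 157.8, 154.9 and 149.1 CPM in Cre control. All KO libraries were lower, and replicate 3 was far below the rest (-0.24 ± 0.12, limma adjusted p = 0.601). Without KO replicate 3 the difference was -0.12 (limma adjusted p = 0.177), and still 0 members were called, while 4.25% of all 10561 genes then were (449 against 146). Without Cre control replicate 2 or 3 the calls over all genes were 87 and 90, again with 0 members.

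Max had 134.2, 126.3, 88.8, 127.7 and 130.4 CPM in KO and 123.2, 133.7, 134.4, 139.1 and 136.9 CPM in Cre control. Its difference of -0.15 ± 0.12 shrank to -0.04 without KO replicate 3. Myc had 48.4, 55.7, 45.5, 46.4 and 49.1 CPM in KO and 45.5, 50.6, 52.5, 47.1 and 55.0 CPM in Cre control. These values interleaved, and the log2 fold change of -0.03 ± 0.10 changed sign with CPM over listed reads (0.03).

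Utp20 had 30.5, 39.6, 39.1, 26.6 and 26.8 CPM in KO against 28.9, 30.2, 28.2, 27.4 and 28.9 CPM in Cre control. Of the KO libraries 3 lay above every control and 2 below every control (0.15 ± 0.12, limma adjusted p = 0.819). For the other role groups the leading values were -0.10 ± 0.11 for the RNA polymerase I subunit Polr1a, -0.08 ± 0.12 for Tcof1, 0.09 ± 0.11 for Nop58 and -0.08 ± 0.12 for Rrp9. Nop2 and the 60S factor Nip7 lay at -0.13 ± 0.11 and -0.12 ± 0.14, Nolc1 and Pa2g4, both nucleolar, at -0.04 ± 0.11 and -0.03 ± 0.12. Odc1 and Cad lay at -0.11 ± 0.11 and -0.10 ± 0.12, Eif4a1 and Eif4e at -0.09 ± 0.14 and -0.07 ± 0.10. Without KO replicate 3 the signs of Rrp9, Nip7, Nolc1, Pa2g4, Tcof1 and Eif4a1 turned.

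**Figure D3:**
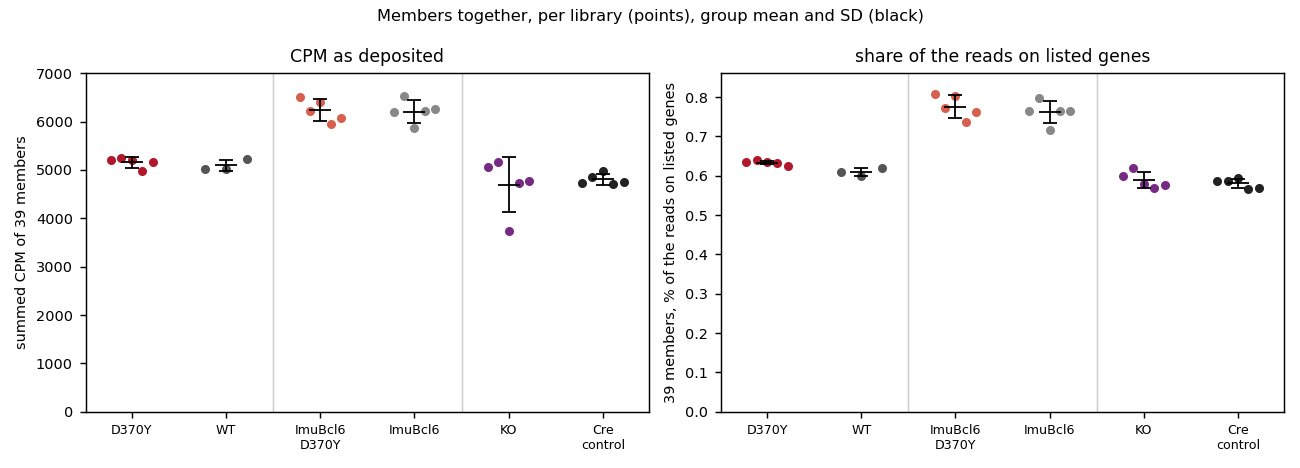
Sum of the 39 tested members in each library (points), with group mean and SD in black, as deposited CPM (left) and as a percentage of the reads on listed genes (right). KO replicate 3 is low at 3733 CPM on the left and lies within its group at 0.580% on the right. D370Y and WT overlap on the left, while on the right D370Y (0.626% to 0.639%) lies above WT (0.600% to 0.621%). The median over members of log2(CPM + 1), scaled to listed reads and not drawn, overlaps (6.41 to 6.67 in D370Y, 6.42 to 6.61 in WT).

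An average over the 3 allele effects gave narrower intervals. The 95% interval of all 39 members lay within 0.32 of 0 on the log2 scale, and limma called 0, where 13% of all 11312 genes passed (5.27% higher and 7.74% lower). Bysl had the smallest adjusted p (-0.16 ± 0.06, limma adjusted p = 0.0630), followed by Max (-0.13 ± 0.05, 0.103) and Tcof1 (-0.11 ± 0.05, 0.168). These were the 3 of 39 members with an unadjusted p below 0.05, where 26.4% of all genes had one. Without KO replicate 3 Bysl passed as lower (-0.11, limma adjusted p = 0.0279), where 2109 of all 11292 genes passed. EdgeR called 1 member and DESeq2 2, both including Bysl (edgeR adjusted p = 0.0275, DESeq2 adjusted p = 0.0112). Of all 11312 genes edgeR called 1705 and DESeq2 1983. Ccnd3, which overlaps exons of Bysl, had an average effect of -0.35 ± 0.06 (limma adjusted p = 6.9e-05). The part of such shared reads in the Bysl value was not tested.

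Myc had an average effect of 0.07 ± 0.07 on the log2 scale. Other leading values by role were 0.08 ± 0.07 for Nop58, 0.06 ± 0.08 for Dkc1, 0.07 ± 0.05 for Rrp1b, 0.07 ± 0.07 for Ppan, 0.07 ± 0.06 for Gnl3 and 0.06 ± 0.06 for Npm1. Ubtf lay at -0.07 ± 0.06, Eif4a1 at -0.06 ± 0.06, Eif4e at -0.04 ± 0.05, Srm at 0.06 ± 0.06, Odc1 at -0.03 ± 0.05 and Rrp12 at 0.09 ± 0.06. None of these passed.

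Differences between the allele effects were tested as contrasts. Between D370Y with and without ImuBcl6, 0 of 39 members passed by limma, edgeR and DESeq2, beside 0.663% of all genes by limma (0.0896% higher and 0.573% lower). By unadjusted p 5 of 39 members were below 0.05, where 12.3% of all genes were. All 5 had the lower effect in ImuBcl6 cells. Xist ran in opposite directions in these D370Y comparisons, so sex and this difference of effects cannot be told apart. Cad had the lowest value (-0.29 ± 0.12, limma adjusted p = 0.358) and Npm1 the highest (0.28 ± 0.14, 0.435), with Myc at -0.26 ± 0.19 and Max at 0.04 ± 0.10, the last with a sign that library weights turned. Below 0 were also Utp20 (-0.26 ± 0.10), Bysl (-0.24 ± 0.10), Mybbp1a (-0.24 ± 0.10), Polr1b (-0.23 ± 0.11), Tcof1 (-0.22 ± 0.10), Rrp1b (-0.16 ± 0.10), Nop2 (-0.09 ± 0.11) and Srm (-0.03 ± 0.16). Above 0 were Eif4e (0.25 ± 0.13), Eif4a1 (0.17 ± 0.12), Fbl (0.15 ± 0.13) and Dkc1 (0.09 ± 0.18). Between the KO and D370Y effects 0 members passed by the same tools, beside 0.145% of all genes by limma (0.0272% higher and 0.118% lower). An unadjusted p below 0.05 was found for 0 members and for 6.14% of all genes. Myc had the lowest value there (-0.28 ± 0.15, limma adjusted p = 0.921), and Max lay at -0.01 ± 0.14 with a sign that depended on the scaling. The lower ones by role were Bysl (-0.25 ± 0.15), Cad (-0.25 ± 0.17), Rrp12 (-0.23 ± 0.14), Polr1a (-0.18 ± 0.14), Rrp9 (-0.18 ± 0.15), Polr1b (-0.17 ± 0.13), Srm (-0.17 ± 0.15), Gnl3 (-0.16 ± 0.16), Nop2 (-0.16 ± 0.14), Mybbp1a (-0.14 ± 0.14) and Rrp1b (-0.11 ± 0.14). Fbl (0.20 ± 0.17), Eif4e (0.08 ± 0.15) and Eif4a1 (0.04 ± 0.18) lay above 0.

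**Figure D4:**
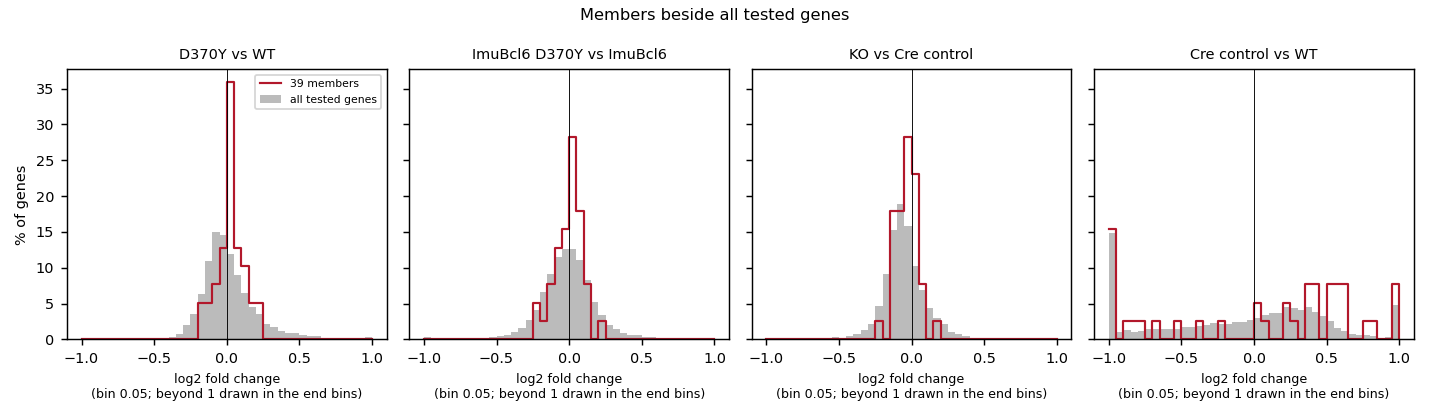
Share of genes in each bin of log2 fold change on log2(CPM + 1), for the 39 tested members (red line) and all tested genes (grey bars), in the 3 allele comparisons and between the control groups. The members centre near 0 in the allele comparisons (medians 0.03, 0.01 and -0.03) and spread from -2.01 to 1.75 between Cre control and WT.

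Other genes of the same pathways were counted in the same fits. Of 184 genes in 8 lists of further RNA polymerase I, ribosome assembly, snoRNP, MYC network, MYC target, polyamine and initiation genes, 181 were found. In D370Y against WT, where 3.55% of all genes passed, 1 of 176 tested rose, the importin Ipo4 (0.31 ± 0.08, limma adjusted p = 0.0426), and 1 fell, Azin1, an antizyme inhibitor that sustains ornithine decarboxylase (-0.28 ± 0.07, 0.0492). In ImuBcl6 cells, where 8.18% of all genes passed, 1 of 177 rose with D370Y, the small subunit factor Utp11l (0.21 ± 0.05, limma adjusted p = 0.0327). There 4 fell: Eif4ebp2, a repressor of EIF4E (-0.30 ± 0.06), the initiation scaffold Eif4g1 (-0.18 ± 0.05), the ubiquitin ligase Huwe1 (-0.30 ± 0.08) and the deubiquitinase Usp28 (-0.21 ± 0.05), the last pair being known to act on MYC protein. In KO against Cre control 0 of 176 passed, where 1.39% of all genes did.

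Regulators of Myc were read beside it. Prdm1 and Irf4, plasma cell regulators of which the first is known to repress Myc, rose in D370Y against WT (1.07 ± 0.26 and 0.52 ± 0.09, limma adjusted p = 0.0466 and 0.00779). Neither passed in the other allele comparisons. In ImuBcl6 cells Bcl6 fell with D370Y from 549.8 ± 24.5 to 467.0 ± 40.1 CPM (SD, n = 5 each; -0.24 ± 0.06, limma adjusted p = 0.0344), and Foxo1, a dark zone regulator, and Tbl1xr1 fell too (-0.28 ± 0.07 and -0.37 ± 0.09). Myc did not pass in any of these comparisons.

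Cell cycle genes, which follow division, were also counted. In D370Y ImuBcl6 cells 3 of 18 G2/M genes (Bub1b, Cdca8 and Aurkb, at -0.24, -0.23 and -0.21) and 3 of 18 replication genes (Uhrf1, Mcm10 and Cdc6, at -0.26, -0.22 and -0.20) fell, and 0 rose, where 5.38% of all genes were lower and 2.8% higher. The list medians there were -0.15 and -0.13, beside -0.0083 for all genes. In D370Y against WT 0 genes of either list passed, with medians of -0.13 and -0.13 and all 18 G2/M genes below 0. The median of all genes there was -0.02, and 45.6% of them lay above 0. In KO 0 passed, with medians of -0.08 and -0.07, close to the -0.06 of all genes, of which only 30.2% lay above 0. Between the D370Y effects with and without ImuBcl6, 0 genes of either list passed. 

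Marker lists of cell states and other cell types were measured beside the module. Over all genes 2.6% were higher in D370Y against WT, 2.8% with D370Y in ImuBcl6 cells and 0.476% in KO. Of 6 naive or memory B cell genes tested, 6, 4 and 2 rose in these comparisons. Their sums were 331.9 to 378.4 CPM in D370Y and 186.2 to 210.9 in WT, 221.8 to 303.6 in ImuBcl6 D370Y and 143.6 to 177.7 in ImuBcl6, and 146.0 to 228.4 in KO and 112.3 to 130.2 in Cre control. Sums of 8 germinal center genes ran the other way in each comparison: 2357 to 2569 against 2791 to 2935, 1758 to 2180 against 2429 to 2669, and 1615 to 2171 against 2179 to 2498 CPM. In the same order 2, 3 and 1 of these genes passed as lower and 0 as higher. Of all genes 0.943%, 5.38% and 0.913% were lower. Estimates of the germinal center genes in KO ran from -0.69 to 0.33 on the log2 scale. Myeloid markers (10 of 11 found) summed to 33.8 to 49.4 CPM in D370Y and 12.5 to 19.5 in WT, and to 23.4 to 40.8 in ImuBcl6 D370Y and 10.1 to 13.9 in ImuBcl6. They were 69.4 to 183.9 CPM in KO and 89.5 to 136.6 in Cre control. Of the genes on the T cell list (6 of 7 found), Cd3g and Cd2 rose with D370Y in ImuBcl6 cells. Cd3g had 0.332 to 2.09 CPM in ImuBcl6 and 3.09 to 9.12 in ImuBcl6 D370Y (1.45 ± 0.28, limma adjusted p = 0.00927). Cd2 had 120.5 to 146.7 and 170.4 to 213.8 CPM (0.46 ± 0.07, limma adjusted p = 0.00298). It had at least 120.5 CPM in every library, far above the rest of this list, so its rise alone does not mark T cells. Cd3d reached 1.72 CPM and Cd4 1.26 CPM at most, and Cd3e and Cd8a were below 1 CPM in all libraries. Cd14 and Fcgr1 were below 1 CPM in all libraries of the 4 groups without KO and Cre control. The part of these cells in the module's values was not tested, and fewer cells of a type and less RNA per cell cannot be told apart in such libraries.

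ImuBcl6 was compared with WT to ask what this allele does to the module with unmutated Tbl1xr1. Of the 39 members 24 were higher and 1, Nop58, lower, where 53.3% of all 10889 genes passed, 24.7% higher and 28.6% lower. Groups did not overlap for 23 members, all higher, beside 52.3% of all genes. Odc1 led, with 245.6, 244.4, 213.9, 246.0 and 267.1 CPM in ImuBcl6 and 67.3, 70.9 and 66.4 CPM in WT (1.82 ± 0.07, limma adjusted p = 3.6e-09). Fbl (1.34 ± 0.12), Bysl (1.14 ± 0.09), Eif4a1 (0.92 ± 0.09), the 60S factor Pes1 (0.72 ± 0.07) and Myc (0.59 ± 0.13, limma adjusted p = 0.00335) were also higher. The other 18 that passed as higher were Polr1b, Polr1a, Tcof1, Mybbp1a, Pa2g4, Nolc1, Ddx21, Nop56, Noc4l, Rrp12, Nop2, Nop16, Nip7, Rrp1b, Wdr12, Ftsj3, Srm and Cad, at 0.20 to 0.64. Nop58 was lower by -0.38 ± 0.12 (limma adjusted p = 0.0229), and Max lay at 0.12 ± 0.08 and Eif4e at 0.15 ± 0.07. The Nop58 call held in 11 of 17 alternatives (adjusted p up to 0.0916) and that of Tcof1 in 7 of 17 (up to 0.118). Ncl, at 1097 ± 126.6 and 1061 ± 55.1 CPM (SD), was not among those that passed.

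The same values were therefore set against the other group with the WT genotype label. Cre control differed from WT in 36 of 39 members, 23 higher and 13 lower, and in 77.2% of all 10720 genes (38.3% higher and 38.9% lower). Groups did not overlap for 23 higher and 13 lower members, beside 73% of all genes. Bysl (1.73 ± 0.05), Fbl (1.75 ± 0.08) and Odc1 (1.10 ± 0.05) were higher, while Dkc1 (-2.01 ± 0.09), Nop58 (-1.80 ± 0.07), Gnl3 (-1.32 ± 0.08), Ncl (-1.28 ± 0.06) and Npm1 (-1.08 ± 0.09) were lower. Ncl had 466.2, 483.3, 410.6, 405.8 and 419.8 CPM in Cre control and 1036, 1023 and 1124 CPM in WT, with no overlap. Myc was higher in Cre control by 0.45 ± 0.07 (limma adjusted p = 7.42e-05), and Max lay at 0.03 ± 0.05 with a sign that the replicate block turned. The others higher were Polr1a, Polr1b, Ubtf, Tcof1, Mybbp1a, Nop56, Rrp9, Noc4l, Rrp12, Nop2, Nop16, Nip7, Pes1, Bop1, Ppan, Rrp1b, Srm, Cad and Eif4a1 (0.21 to 0.83), and the others lower Utp20, Wdr43, Nop14, Heatr1, Ddx21, Ftsj3, Eif4e and Wdr12 (-1.22 to -0.21). The Rrp1b call held in 10 of 17 alternatives (adjusted p up to 0.141). Between ImuBcl6 and Cre control 20 members were higher and 7 lower (Bysl, Ppan, Bop1, Fbl, Tcof1, Cad and Rrp9, at -0.58 to -0.25), and 71.1% of all genes passed (40.2% higher and 31% lower). Groups did not overlap for 18 higher and 5 lower members, beside 56.8% of all genes. The higher ones were led by Dkc1 (1.72 ± 0.11), Gnl3 (1.45 ± 0.08), Nop58 (1.42 ± 0.10) and Utp20 (1.38 ± 0.06), and Myc lay at 0.14 ± 0.10 (limma adjusted p = 0.239). The rest of the higher ones (Ncl, Npm1, Nop14, Ddx21, Wdr43, Heatr1, Ftsj3, Odc1, Eif4e, Wdr12, Pa2g4, Nolc1, Rrp1b, Polr1b, Nop56 and Eif4a1) lay at 0.16 to 1.32. The Rrp9 call held in 9 of 19 alternatives (adjusted p up to 0.121) and that of Eif4a1 in 8 of 19 (up to 0.329). Comparisons with WT and with Cre control share ImuBcl6 libraries, and the set of libraries and the genotype cannot be told apart.

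Base composition moved with these differences. In Cre control against WT the Spearman correlation between a member's log2 fold change and the GC content of its transcript was 0.75 (39 members) and 0.74 over 9773 genes, which share the same libraries. All 19 members above the median GC content of 50.8% lay above 0, against 7 of the other 20. For ImuBcl6 against WT the correlation was 0.44 over members and 0.36 over all genes, and against Cre control -0.81 and -0.68. In the allele comparisons the values over members and over all genes were 0.32 and 0.23 for D370Y against WT, -0.34 and -0.07 in ImuBcl6 cells, and -0.31 and -0.09 for KO. A further 6 members (Npm1, Fbl, Nop56, Pes1, Odc1 and Eif4a1) have 39.2% to 83.3% of their transcript in near-identical copies elsewhere, so reads could be shared with those copies. Their median absolute log2 fold change was 0.95 against 0.54 for the other 33 in Cre control against WT, 0.82 against 0.29 in ImuBcl6 against WT, and, in the opposite order, 0.29 against 0.40 in ImuBcl6 against Cre control.

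**Figure D5:**
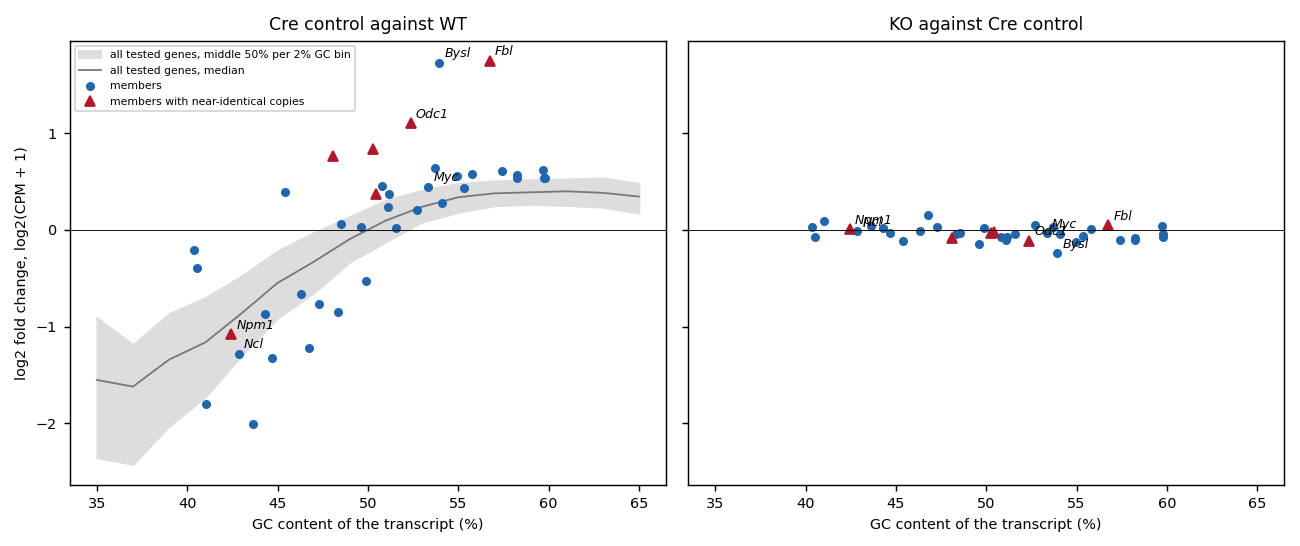
Log2 fold change of the 39 members against the GC content of their transcripts, for Cre control against WT (left, with the median and middle 50% of all tested genes per GC bin in grey) and KO against Cre control (right); triangles are members with near-identical copies. On the left Ncl and Npm1 (-1.28 and -1.08) lie low and Bysl, Fbl and Odc1 (1.73, 1.75 and 1.10) high, while on the right every member lies between -0.24 and 0.15.

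A stricter reading asks where every ImuBcl6 library lay above every WT and every Cre control library. That held for 8 of 39 members (Ddx21, Ftsj3, Nolc1, Nop56, Odc1, Pa2g4, Rrp1b and Wdr12), where 8.93% of all genes did so, and 0 members lay below both, where 7.46% did. Pa2g4, for example, averaged 439.5 ± 31.3 CPM in ImuBcl6, 306.1 ± 5.37 in WT and 319.7 ± 9.30 in Cre control (SD). Odc1 averaged 243.4 ± 19.0, 68.2 ± 2.40 and 147.6 ± 6.14 CPM. Myc was not among the 8, since its lowest ImuBcl6 value of 43.6 CPM lay below all Cre control values.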

How the data were processed

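RNA-seq was run on germinal center B cells in 28 libraries. Per the labels' protocols, Trizol and RNeasy were used for total RNA. Per the submitters' processing notes, the aligner was STAR and the genome mm10. Counter, strand setting, annotation and tool versions: not given in the sources used here. Each library's table, as deposited by the authors, holds CPM values. All values (100%) were whole multiples of what 1 read is worth (within 0.01), so reads were recovered for count tests.

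The members and all gene lists were chosen with earlier results of these data known. Each comparison was a limma fit (3.58.1, R 4.3.3; trend, robust) of log2(CPM + 1), without further scaling. Genes needed a CPM of at least 1 in as many libraries as the smallest group. Tests were two-sided, with Benjamini-Hochberg adjustment over all genes tested and a threshold of 0.05. Fold changes on this scale understate changes of low genes. Cre control against WT and ImuBcl6 against Cre control were added after seeing the data, as were the copy limit and the choice of members given library by library. Named were Myc and Max, every called member and up to 2 members per role group with the largest change. Other pathway lists named up to 3 called genes per direction, and the fourth lower one in ImuBcl6 cells was added after its value was seen. GC content, coordinates and copies (blastn 2.17.0, at least 95% identity over 100 bases, more than 30% of the transcript) come from the GENCODE M21 annotation of mm10. Alternatives were a pseudocount of 0.5 CPM, no filter, CPM over listed reads, TMM, library weights, edgeR (4.0.16) and DESeq2 (1.42.0) on recovered reads, a replicate block, 1 fit of all libraries and each library left out. The fits were also run on simulated reads, and no result above rests on that run.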

Additional observations from a re-analysis of the deposited data

Results flagged for a closer look

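Some libraries lay far from the rest of their group for members given library by library, by Dixon's test at the 95% level, which flags about 1 in 20 groups by chance. KO replicate 3 was low for Bysl at 90.1 CPM (others 137.0 to 141.9), for Max at 88.8 CPM (others 126.3 to 134.2) and for Odc1 at 102.0 CPM (others 140.1 to 151.4). Reads on listed genes were 64.4% of the total in that library. Odc1 was high in ImuBcl6 D370Y replicate 3, at 279.4 CPM against 226.3 to 237.7, and Tcof1 was low in ImuBcl6 replicate 1, at 281.2 CPM against 330.3 to 345.0. Over all 39 tested members and the 5 groups of 5 libraries, 18 of 195 tests stood out in this way, of which 11 were in KO replicate 3.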

How the results depend on the processing

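The count of called members stayed at 0 in D370Y against WT, in KO against Cre control and in both differences of effects under each alternative run. For D370Y in ImuBcl6 cells it was 0 without the filter, over listed reads, with TMM, by edgeR and with all 28 libraries in 1 fit. It was 3 with library weights, where 1230 of all 10784 genes were called. With 1 library left out it was 0 to 2, the 2 coming without ImuBcl6 replicate 1 (1016 of all 10854 genes). For the average effect it was 2 over listed reads, 2 with TMM, 4 with library weights, 1 by edgeR and 2 by DESeq2. Of all 11312 genes 1697, 1815, 3175, 1705 and 1983 were called, in that order. With 1 library left out it was 0 to 1, the 1 coming without ImuBcl6 replicate 1, KO replicate 3 or KO replicate 4. Those fits called 1486 of 11305, 2109 of 11292 and 1393 of 11298 genes. The cause was not tested. The median member was 0.0407 by DESeq2 for the KO minus D370Y effect, and for ImuBcl6 against Cre control 0.0734 with TMM and 0.0863 by edgeR.

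Signs of some estimates turned, all of members that were not called in the comparison; values are on the log2 scale. In KO against Cre control they include leading members (Nip7, Odc1, Nop58 and Eif4a1, reported at -0.12, -0.11, 0.09 and -0.09). In ImuBcl6 cells Myc was 0.0143 over listed reads, 0.00967 with TMM, 0.00696 with library weights and 0.000194 by DESeq2, and -0.0911 to 0.0871 with 1 library left out. In KO against Cre control Myc was 0.0292 over listed reads, 0.0231 with TMM, 0.0398 by edgeR and 0.0378 by DESeq2 (-0.0788 to 0.000993 leaving out 1 library). Over listed reads, with TMM, library weights, edgeR and DESeq2, Nolc1 was 0.0179, 0.0118, 0.0349, 0.0253 and 0.0241 and Pa2g4 was 0.0317, 0.0255, 0.101, 0.0412 and 0.0402. With library weights Nop58 was -0.0121, Rrp9 0.0418, Nip7 0.0724, Eif4a1 0.0731 and Odc1 0.00487. Leaving out 1 library gave -0.123 to 0.0390 for Rrp9, -0.171 to 0.0265 for Nip7, -0.0879 to 0.0498 for Nolc1, -0.0789 to 0.0897 for Pa2g4, -0.134 to 0.00672 for Tcof1 and -0.150 to 0.0618 for Eif4a1. In the average effect Eif4a1 was 0.00542 and Eif4e 0.0168 with library weights, and Odc1 was 0.00598 over listed reads, 0.0166 with weights and -0.0508 to 0.000679 with 1 library left out. In the difference of D370Y effects Max was -0.00309 with library weights and -0.00163 to 0.0884 with 1 library left out, and Srm -0.111 to 0.0429. In the KO minus D370Y effect Max was 0.0161 over listed reads, 0.0837 with TMM, 0.0862 with library weights, 0.0770 by edgeR and 0.0980 by DESeq2 (-0.0494 to 0.0983 leaving out 1 library), and Eif4e and Eif4a1 were -0.00801 to 0.134 and -0.0247 to 0.188 leaving out 1 library.

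Replicate numbers did not pair the samples: correlations of same-numbered deviations ran from -0.276 to 0.514 in ImuBcl6 cells, and in no comparison was every pair above 0.1. With the replicate block, 2 members (Npm1 and Tcof1) were called for D370Y in ImuBcl6 cells, beside 1000 of all 10784 genes. It called 0 members in D370Y against WT, KO against Cre control, the average and both differences. The block gave 24 members for ImuBcl6 against WT, 34 for Cre control against WT and 29 for ImuBcl6 against Cre control. Of all genes it called 5205 of 10889, 7552 of 10720 and 7694 of 10714, in that order. It gave -0.0499 for Eif4e and -0.0454 for Eif4a1 in the KO minus D370Y effect and -0.00522 for Max in Cre control against WT, and moved all genes called in D370Y against WT from 376 to 764. Over listed reads 44.6% of calls among all genes were higher for D370Y in ImuBcl6 cells, against 34.2%, and 48.3% for KO, against 34.2%.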
